A study of Mus musculus with 16 samples.

Results

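The genes described here are 10 enzymes and transporters of glycolysis and of pyruvate handling: Slc2a1, Hk2, Pfkp, Aldoa, Tpi1, Pgk1, Eno1, Pkm, Ldha and Pdk1. They were picked by symbol from the 22396 gene symbols that both deposited tables list with no threshold on a measured value. EpCAM+ cells, which carry a surface protein of epithelium, had been sorted from the distal colon of 16 mice aged 8 weeks, and the polyA RNA of each mouse was sequenced as 1 library. All mice carried the floxed Tnfr2 allele (Tnfr2-f/f). Controls carried nothing further, and the labelled knockouts also carried Vil1::Cre, in which the promoter of villin, a gene of intestinal epithelium, drives Cre recombinase. There were 4 groups, namely 4 Tnfr2-f/f and 5 Vil1::Cre;Tnfr2-f/f mice given water, and 3 Tnfr2-f/f and 4 Vil1::Cre;Tnfr2-f/f mice given dextran sulfate sodium (DSS), a polymer that injures the colonic epithelium. The labels give 3% DSS for 6 days and dissection on d 12. The paper gives another DSS strength, describes the water-treated mice as uninjured animals of the start of the experiment, and took injured regions of the DSS-treated colon. The labels place the water-treated males in cage a and the females in cage b, so cage and sex are the same split there. The DSS-treated mice were all female, in cages c and d.

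Glycolysis splits glucose into pyruvate in the cytosol, and lactate dehydrogenase then turns pyruvate into lactate where it is not burned in mitochondria. When oxygen is short, the transcription factor HIF-1 raises many of these enzymes by binding a short core sequence in their promoters. The colonic surface lives at low oxygen even in health, and its mature cells burn butyrate rather than glucose, so the pathway is of interest where this epithelium is injured and rebuilt.

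Values are TPM, a transcript abundance corrected for length and library size, summed per gene. The 2 tables, one for each treatment, had been scaled separately. To set levels side by side all 16 mice were rescaled once, by the median ratio over the 9936 genes above 0 in every mouse, with factors of 0.905 to 0.94 in water and 1.13 to 1.24 after DSS. Levels across treatments are described and not tested, because treatment shares its split with table and cage. Tests were made within a table only.

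Several facts of the libraries touch all that follows. All 12 epithelial markers were present in each group, with a summed level of 7314 to 10110 rescaled TPM in water and 5686 to 8907 after DSS. The largest parts of this sum, Krt8 (-0.62 log2), Lgals4 (-0.59) and Krt19 (-0.44), were lower after DSS. Epcam (0.24), the marker of the sort, was higher, as were Cdh1 (0.24), Cdx2 (0.40) and Cdx1 (0.05), and the remaining markers were lower. Over all mice none of the 12 was without overlap, and their median difference was -0.30 log2. Markers of plasma and B cells summed to between 2848 and 162000 in water and to between 62.5 and 3366 after DSS. The 10 myeloid markers summed to between 1326 and 3051 in water and to between 68.1 and 137 after DSS. The 10 stroma markers found summed to between 338.5 and 998.5 in water and to between 112 and 492.8 after DSS, with Vim lower in all 7 DSS mice (-2.57 log2). The 12 T cell markers went from 10.4 to 27.2 in water to 0.155 to 3.76 after DSS, where Cd8a, Cd8b1 and Lck were under 0.1, and the 7 pan-leukocyte markers from 193 to 561 to 12.7 to 51.1. The sum of the neutrophil markers was 47.7 to 115 in water and 76.5 to 1731 after DSS, mostly through S100a8 (5.37 log2) and S100a9 (5.62 log2), which injured epithelium can also make. Of the same list Csf3r and Ly6g, each at -0.36 log2, overlapped between treatments, and Elane in all 4 groups and Mpo in 3 were under 0.1. Retnlg, at 1.045 to 21 in water and 3.476 to 65.2 after DSS, reached higher levels after DSS but overlapped too. The same held for Cxcr2, at 0 to 1.17 in water and 0.348 to 3.61 after DSS. The part of these cells in the differences across treatments was not tested, and in bulk RNA fewer cells of a type and less RNA per cell cannot be told apart. DSS Tnfr2-f/f replicate 3, from cage c, stood nearer to the water-treated mice than the other DSS mice did, with a median rank correlation with them of 0.804 against 0.744 to 0.782. The members' differences and the counts of genes across treatments are therefore also given without it. Tnfrsf1b, the gene encoding TNFR2, was at 12.2 to 17 rescaled TPM in water-treated controls and 9.82 to 16.4 in the labelled knockouts (exact two-sided permutation test, p = 0.198), and after DSS at 10.8 to 19.3 and 11.3 to 22.7 (p = 0.629). Its summed TPM therefore did not separate the labelled genotypes in either table, and whether the deletion would show in this value was not tested. The paper reported less TNFR2 on EpCAM+ cells of such knockouts by flow cytometry, with similar results by RT-qPCR. It describes the floxed part of the gene as a single exon.

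The genes lie on 6 autosomes and the X chromosome (GENCODE M21, build GRCm38). Pgk1 is on the X chromosome at chrX:106187100-106203699 on the plus strand, with 11 exons in the listed transcript. Aldoa is at chr7:126795234-126800751 on the minus strand, and Ldha, on the same chromosome, at chr7:46841475-46855627 on the plus strand. Pkm spans chr9:59656368-59679375, Eno1 chr4:150236721-150248879, Tpi1 chr6:124810586-124814296 and Slc2a1 chr4:119108711-119137983. Hk2 spans chr6:82725025-82774454, Pfkp chr13:6579768-6648777 and Pdk1 chr2:71873224-71903858. All are protein coding.

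The promoters of 4 members are shown because of their differences from water after DSS in the rescaled values. There Pgk1 was higher, and Aldoa, Pkm and Ldha were lower. These are not the members with the largest differences. That of Slc2a1 was larger (-0.62 log2) and its promoter is not printed, while that of Ldha was -0.24 log2. Other scalings changed the sign of Ldha, at 0.12 log2 in the values as deposited. By rank within a mouse Aldoa and Pkm were slightly higher after DSS. Each run is the 250 bases before a RefSeq transcription start (build GRCm38.p6), read 5′ to 3′ on the strand of the gene. Capitals mark ACGTG or GCGTG, the core that HIF-1 binds, on either strand, so that CACGT and CACGC are the same core read from the other strand.
Pgk1 (chrX:106186850-106187099, plus strand): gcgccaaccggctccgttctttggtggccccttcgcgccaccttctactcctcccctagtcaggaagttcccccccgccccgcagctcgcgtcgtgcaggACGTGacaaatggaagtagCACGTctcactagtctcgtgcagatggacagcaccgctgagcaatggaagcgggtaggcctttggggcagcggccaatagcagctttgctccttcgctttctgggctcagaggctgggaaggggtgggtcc
Ldha (chr7:46845554-46845803, plus strand): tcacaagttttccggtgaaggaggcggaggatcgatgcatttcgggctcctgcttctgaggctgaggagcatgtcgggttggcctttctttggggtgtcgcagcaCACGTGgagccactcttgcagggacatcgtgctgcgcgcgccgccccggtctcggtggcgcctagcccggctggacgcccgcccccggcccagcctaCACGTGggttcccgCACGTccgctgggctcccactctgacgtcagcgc
Aldoa (chr7:126799255-126799504, minus strand): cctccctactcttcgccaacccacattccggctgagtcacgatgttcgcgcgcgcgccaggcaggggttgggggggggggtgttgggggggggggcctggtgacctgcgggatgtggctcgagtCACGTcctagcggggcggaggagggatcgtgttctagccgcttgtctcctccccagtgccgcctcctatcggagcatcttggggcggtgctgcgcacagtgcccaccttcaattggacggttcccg
Pkm (chr9:59656977-59657226, plus strand): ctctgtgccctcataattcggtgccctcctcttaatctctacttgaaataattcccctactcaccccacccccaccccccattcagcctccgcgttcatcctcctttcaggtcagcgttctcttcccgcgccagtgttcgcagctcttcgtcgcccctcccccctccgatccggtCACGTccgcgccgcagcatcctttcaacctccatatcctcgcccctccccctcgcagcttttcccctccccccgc
Pgk1 held 2 cores, which start 150 and 131 bases before the transcription start. Ldha held 5, where each CACGTG counts as 2 overlapping cores. Aldoa and Pkm held 1 each in the windows printed, and none in their first-listed windows. Over the 17 windows that RefSeq gives for the 10 genes, of which some overlap, 13 held at least 1 core, and 9 of the 10 genes held 1 in some window. Tpi1 held none. Of all 32851 promoter windows of the same length, 38.6% held at least 1. That share is per window. The share of all genes with a core in some window was not computed, and a gene with several windows has more chances to hold 1. A core is a match of 5 letters and no evidence of binding.

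The mice gave a steep ladder of levels. In water the order by median rescaled TPM was Aldoa (508), Ldha (424), Pkm (283), Eno1 (211), Tpi1 (203), Pgk1 (179), Hk2 (48.7), Slc2a1 (25.1), Pfkp (7.09) and Pdk1 (4.33). TPM is per length, so levels of different genes can be compared. In each of the 9 water-treated mice each gene stood above the next one in this order, although the ranges over mice overlapped for most neighbours and were apart only between Ldha and Pkm, Pgk1 and Hk2, and Slc2a1 and Pfkp. After DSS the order was Ldha (359), Aldoa (350), Pgk1 (248), Tpi1 (224), Eno1 (208), Pkm (199), Hk2 (45.6), Slc2a1 (17.9), Pfkp (7.27) and Pdk1 (4.76). By median, Pgk1 held the third place after DSS and the sixth in water, and Pkm the sixth after DSS and the third in water. Most neighbours in the DSS order were not resolved. Ldha stood above Aldoa in 4 of 7 mice, Tpi1 above Eno1 in 5, Eno1 above Pkm in 5, and Pgk1 above Tpi1 and Pfkp above Pdk1 in 6 each, with ranges that overlapped in each pair.

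**Figure D1:**
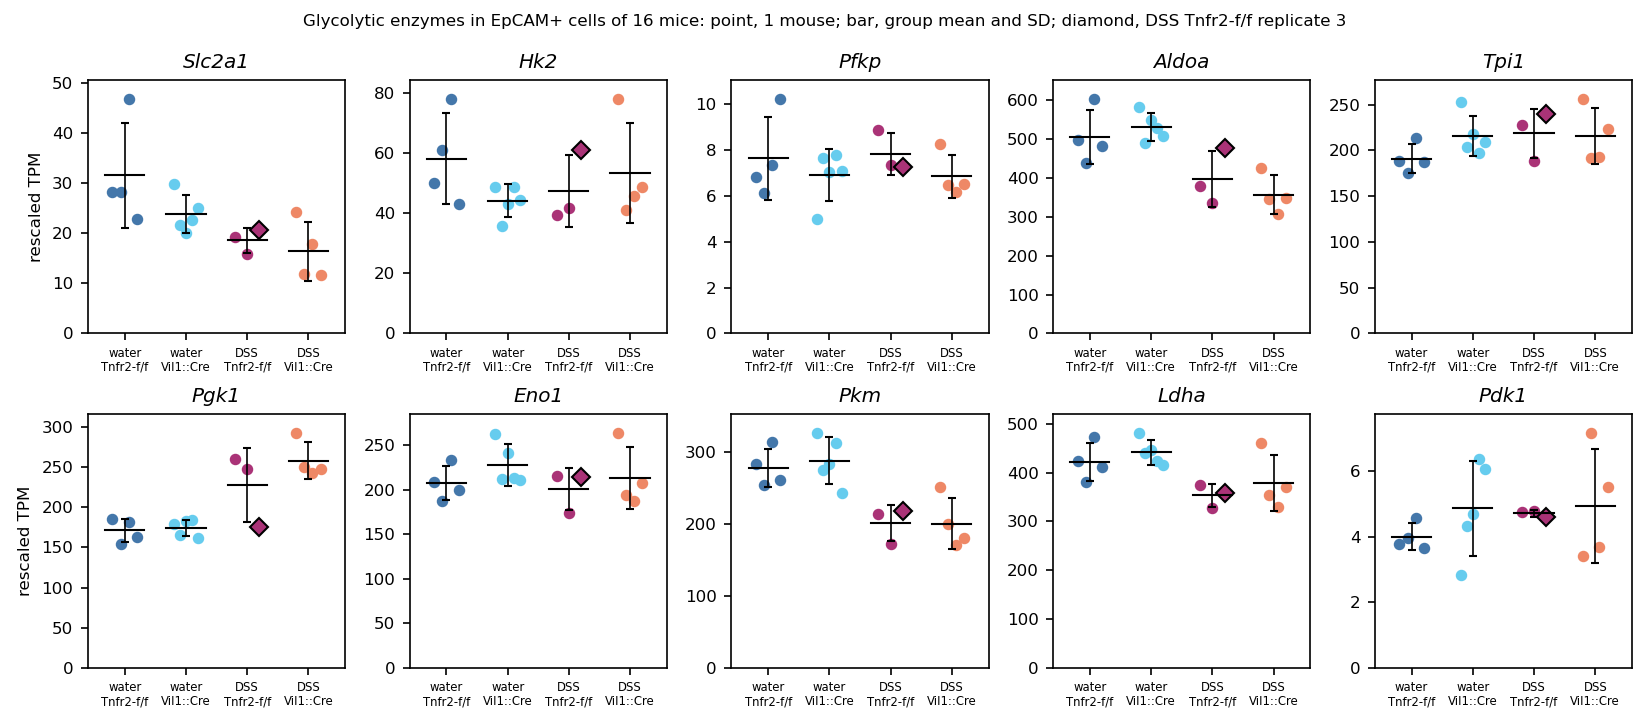
Rescaled TPM (y axis, linear from 0) of the 10 genes in each mouse of the 4 groups (x axis). Points are mice, bars are the group mean and SD, and the diamond is DSS Tnfr2-f/f replicate 3. In Pgk1 6 of 7 DSS points lie above all water points and the diamond, at 175, lies among them.

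Pgk1, phosphoglycerate kinase, makes the first ATP of the pathway, and it was the member with the largest higher level after DSS. Water-treated controls had 185, 155, 181 and 163 rescaled TPM, and the water-treated labelled knockouts 179, 165, 182, 184 and 162. After DSS the controls had 260, 248 and 175, and the labelled knockouts 292, 250, 243 and 247. Thus 6 of the 7 DSS mice were above all 9 water-treated mice, and the seventh, control replicate 3, lay inside the water range. The mean was 1.42 times that in water, a difference of 0.49 on the log2(rescaled TPM + 1) scale, and 0.57 without replicate 3. It was 0.39 between the controls and 0.56 between the labelled knockouts. The difference was positive under all 5 other scalings tried, but its size depended on them, at 0.85 log2 in the values as deposited and 0.90 at the same summed TPM. Pgk1 lies on the X chromosome and the DSS mice were all female, whereas 4 of the 9 water-treated mice were male. Among the water-treated mice the females of cage b differed from the males of cage a by -0.08 log2 (SE 0.09, adjusted p = 0.872 by limma).

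Aldoa, the aldolase that splits fructose bisphosphate, showed the opposite order. Its level was 498, 438, 604 and 482 rescaled TPM in water-treated controls and 582, 491, 548, 529 and 509 in the water-treated labelled knockouts. After DSS it was 379, 336 and 476 in controls and 426, 345, 307 and 350 in the labelled knockouts. In 6 of 7 DSS mice it lay below all water-treated mice, and again control replicate 3 did not. The difference was -0.48 log2 and -0.54 without replicate 3. Most of this gene's level came from 1 transcript, ENSMUST00000032934.11, whose median was 474 in water and 321 after DSS.

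Pkm, pyruvate kinase, which makes the last ATP of glycolysis, was at 283, 254, 313 and 261 rescaled TPM in water-treated controls and at 326, 275, 283, 312 and 242 in the water-treated labelled knockouts. After DSS it was at 213, 172 and 218 in controls and at 251, 199, 171 and 180 in the labelled knockouts. Here the DSS mouse that overlapped with water was labelled-knockout replicate 1, also of cage c, and the difference was -0.50 log2, and -0.52 without control replicate 3. The table lists 1 Pkm transcript only, so the choice between the M1 and M2 forms of the enzyme, which splicing sets, could not be read.

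Ldha, the lactate dehydrogenase subunit that favours lactate, was at 424, 380, 472 and 412 rescaled TPM in water-treated controls and 481, 440, 446, 424 and 416 in the water-treated labelled knockouts. It was at 374, 327 and 359 after DSS in controls and 460, 354, 330 and 372 in the labelled knockouts. Again 6 of the 7 DSS mice lay below all water-treated mice, with labelled-knockout replicate 1 inside the water range, but the difference was smaller, -0.24 log2 and -0.23 without control replicate 3, and it changed sign with the scaling, at 0.12 in the values as deposited and 0.17 after setting all mice to the same summed TPM.

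Slc2a1, the glucose transporter GLUT1, was lowest relative to water, with a difference of -0.62 log2, and -0.67 without DSS control replicate 3. The water-treated controls had 28.2, 28.3, 46.9 and 22.8 rescaled TPM and the labelled knockouts 29.8, 21.6, 20.2, 22.6 and 25.1. After DSS the values were 19.2, 15.8 and 20.7 in controls and 24.2, 11.9, 17.9 and 11.8 in the labelled knockouts. In 5 of 7 DSS mice it lay below all water-treated mice, and the 2 that did not were the mice of cage c.

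The other members differed little between treatments at this scaling. Hk2, the inducible hexokinase that traps glucose in the cell, ranged from 35.6 to 77.9 rescaled TPM in water and from 39.3 to 77.9 after DSS. Tpi1, triose phosphate isomerase, ranged from 175 to 253 and from 188 to 256. Eno1, the main enolase, ranged from 188 to 262 and from 174 to 263. Pfkp, the platelet-type phosphofructokinase, ranged from 5.01 to 10.2 and from 6.17 to 8.89, and Pdk1, the kinase that holds pyruvate out of the mitochondrial cycle, from 2.84 to 6.39 and from 3.42 to 7.16. Their DSS minus water differences lay between -0.08 and 0.09 log2, and between -0.08 and 0.10 without DSS control replicate 3. In the values as deposited they were higher, at 0.36 for Hk2, 0.44 for Tpi1, 0.28 for Eno1, 0.33 for Pfkp and 0.39 for Pdk1, near the median of all genes in those values (0.31).

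Counted over all 16 mice, none of the 10 members had DSS and water ranges that did not overlap, in either direction. Of the 11207 genes averaging 1 rescaled TPM or more, 4.49% were higher and 7.04% lower after DSS without overlap. Without DSS control replicate 3, Pgk1 was higher and Aldoa lower without overlap, beside 12.2% and 12% of all genes. Without DSS labelled-knockout replicate 1 instead, Pkm and Ldha were lower and no member was higher. Beside them 811 of the 11207 genes were lower and 535 higher. How many of all genes had all but 1 DSS mouse beyond the water range, whichever the mouse, was not counted. Without both mice of cage c, Pgk1 was higher and 4 members (Slc2a1, Aldoa, Pkm and Ldha) were lower, beside 13.9% and 13.7% of all genes. The members' median difference was -0.03 log2 over all mice, against 0.01 over all genes, and 5 of 10 were positive. The scaling moved the whole distribution. In the values as deposited the median of all genes was 0.31 and that of the members 0.31, with 2115 genes higher and 473 lower without overlap in place of 503 and 789, and Pgk1 was then the 1 member higher without overlap. By rank within a mouse, Pgk1 and Tpi1 were higher without overlap. Pgk1 went from between the 96.3rd and 97.1st percentile in water to between the 97.5th and 98.4th after DSS, and Tpi1 from 96.7 to 97.5 to between 97.7 and 98.2. Aldoa, Pkm and Slc2a1 had negative differences under the 5 level scalings, but those of Aldoa and Pkm came close to 0. In the values as deposited they were -0.12 for Aldoa, -0.14 for Pkm and -0.28 for Slc2a1, and at the same summed TPM -0.07, -0.09 and -0.23. By rank Aldoa and Pkm were slightly higher, by 0.20 and 0.18 percentile points, and Slc2a1 was lower with a difference of -7.47 points.

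Ratios within a mouse do not depend on scaling. The ratio of Pgk1 to Aldoa was 0.371, 0.353, 0.3 and 0.339 in water-treated controls and 0.307, 0.337, 0.333, 0.348 and 0.319 in the water-treated labelled knockouts. After DSS it was 0.687, 0.739 and 0.368 in controls and 0.685, 0.724, 0.791 and 0.707 in the labelled knockouts. Thus 6 DSS mice lay at 0.685 or above and all water-treated mice at 0.371 or below, with no mouse between, and DSS control replicate 3 had the water value. Pgk1 over Ldha went from 0.372 to 0.437 in water to 0.488 to 0.759 after DSS, and Pgk1 over Pkm from 0.549 to 0.669 to 0.802 to 1.44. In these 2 ratios all 7 DSS mice, replicate 3 included, were above all 9 water-treated mice. Pgk1 had been seen to be higher after DSS, and Aldoa, Pkm and Ldha to be lower. The parting of these ratios follows from those levels and is no separate finding. How many other pairs of genes part in this way was not counted. The other ratios compared overlapped between treatments over all mice. Those of Pgk1 over Slc2a1, Tpi1, Eno1 and Pgam1 (the mutase after Pgk1) were higher without overlap once replicate 3 was left out. Those over Hk2, Pfkp, Pdk1 and Gapdh overlapped in that case too, with Pgk1 over Gapdh, the enzyme just before it, at 0.282 to 0.966 in water and 0.499 to 0.75 in the other 6 DSS mice.

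**Figure D2:**
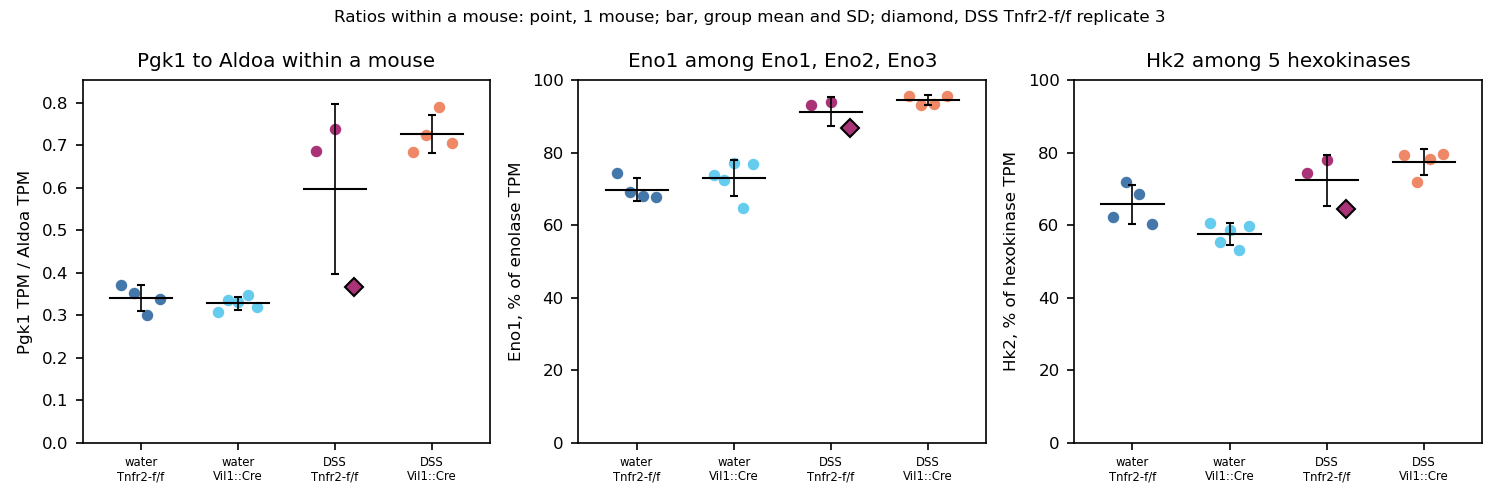
Ratios within a mouse (y axes: Pgk1 TPM over Aldoa TPM, and Eno1 and Hk2 as percent of the summed TPM of their isoenzymes) by group (x axis). Points are mice, bars the group mean and SD, and the diamond DSS Tnfr2-f/f replicate 3. The Pgk1 ratio parts at 0.371 and 0.685 with the diamond on the water side, and the Eno1 share is at 64.7% to 77% in water and 86.6% to 95.7% after DSS.

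Isoenzymes catalyse the same step from different genes, and several steps had partners of the members that were lower after DSS. Eno1 shares its step with Eno3, the muscle-type enolase, and Eno2, the neuronal one. Eno3 was at 71, 83.7, 110 and 95.3 rescaled TPM in water-treated controls and at 93.6, 80.3, 71.8, 115.8 and 62.9 in the labelled knockouts, and after DSS at 15.9, 11 and 32.9 in controls and at 11.8, 14.1, 12.5 and 9.83 in the labelled knockouts. All 7 DSS mice were below all 9 water-treated mice, by -2.50 log2. The 9 stroma markers averaging 1 rescaled TPM or more had a median of -0.99 log2, and of these only Vim was lower without overlap. The part of stroma cells in this muscle-type gene was not tested. As Eno1 hardly differed, its share of enolase TPM was 74.5%, 69.1%, 68% and 67.7% in water-treated controls and 73.7%, 72.5%, 77%, 64.7% and 77% in the labelled knockouts. After DSS it was 93.1%, 94.1% and 86.6% in controls and 95.7%, 93.2%, 93.5% and 95.5% in the labelled knockouts. Eno1 was thus the larger part of the enolase RNA in every mouse, and its share did not overlap between treatments, control replicate 3 lying between.

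Hk1, the constitutive hexokinase, was at 22.9 to 36.1 rescaled TPM in water and at 9.65 to 19.2 after DSS in 6 mice, with DSS control replicate 3 at 30.7. The share of Hk2 among the hexokinases was 53.2% to 71.9% in water and 72% to 79.5% in those 6 mice, and 64.6% in replicate 3. Pfkm, the muscle-type phosphofructokinase, was also lower in all 7 DSS mice (-0.95 log2, and -1.02 without replicate 3), at 1.85 to 3.75 against 4.35 to 7.24, whereas the share of Pfkp in the step, 10.6% to 21% in water and 14.2% to 23.9% after DSS, overlapped. Pdk2, a kinase of the same step as Pdk1, was lower in all 7 DSS mice (-1.25 log2, and -1.40 without replicate 3), at 16.7 to 21.6 in water and 5.14 to 14.7 after DSS. Pdk3 was higher in 6 of 7 (0.55 log2). The Pdk1 share of the 4 kinases, 7.87% to 18.3% and 10.1% to 19.4%, overlapped. Aldoa made up 83% to 92% of aldolase TPM over all mice, Pkm at least 94.5% of pyruvate kinase, Ldha 98.7% to 100% of lactate dehydrogenase and Slc2a1 89.5% to 97.7% of the glucose transporters compared.

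**Figure D3:**
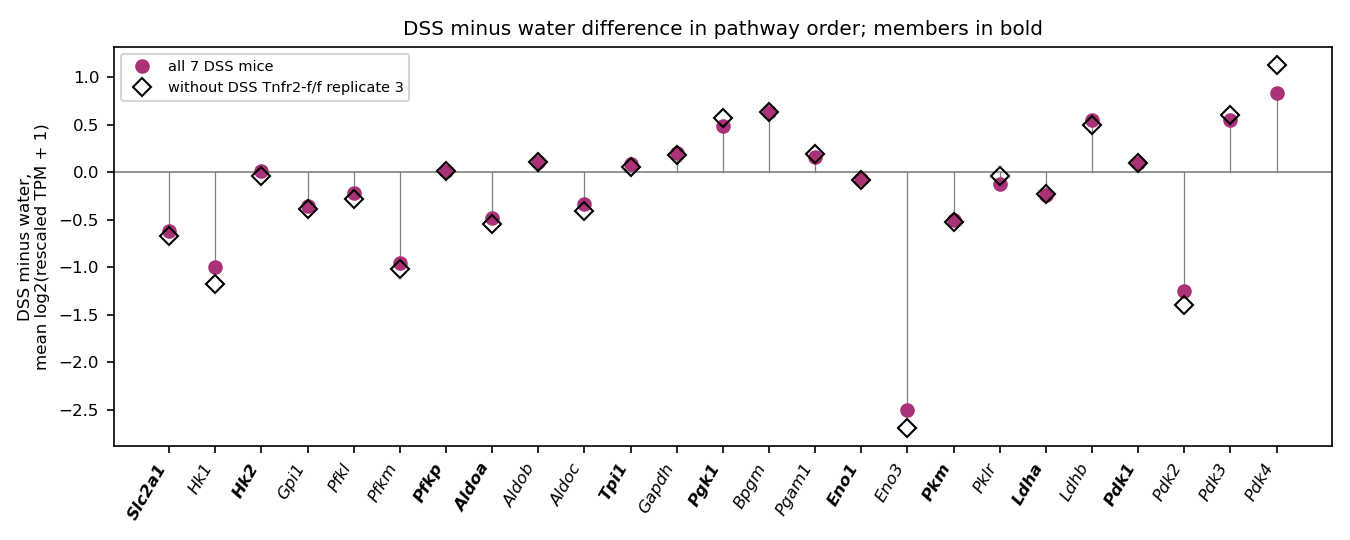
DSS minus water difference of the mean log2(rescaled TPM + 1) (y axis) for members (bold) and other genes of the pathway, in pathway order (x axis). Filled points use all 7 DSS mice and open diamonds leave out DSS Tnfr2-f/f replicate 3. Eno3 is lowest at -2.50 and Pdk2 is at -1.25, while Pdk4 at 0.83, Bpgm at 0.63 and Pgk1 at 0.49 lie above 0.

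The wider pathway was read from lists of genes, beside 4.49% of all genes higher and 7.04% lower without overlap over all mice, and 12.2% and 12% without DSS control replicate 3. Of 19 further glycolysis genes averaging 1 rescaled TPM or more, none was higher and 3 (Eno3, Pfkm and Gpi1, the isomerase after hexokinase) were lower in all 7 DSS mice, with a median of -0.12 log2. Without replicate 3, 4 were lower, Hk1 with them, and the median was -0.04. Bpgm, which makes 2,3-bisphosphoglycerate in a side branch next to Pgk1, had a larger difference than Pgk1 (0.63 log2, 6 of 7 DSS mice above all water-treated mice) and overlapped with and without replicate 3. Of 13 genes of pyruvate entry into mitochondria, over all mice Pdk2 alone was lower and none was higher, whereas without replicate 3 there were 3 higher (Pdk3, Dld and Pdha1) and 2 lower (Pdk2 and Pcx). Over all mice no gene was without overlap among 4 of gluconeogenesis, 7 of the pentose phosphate pathway, 10 of the HIF machinery and 5 of Myc-linked growth. Without replicate 3, 2 gluconeogenesis genes were lower (Pck1 and G6pc3), 2 pentose phosphate genes were higher (Rpe and Rpia) and 1 lower (Pgls), 1 gene of the HIF machinery was higher (Ep300) and 1 lower (Egln2), and 2 of Myc-linked growth were higher (Ncl and Npm1).

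Of 27 other genes that hypoxia is known to raise, 3 were higher over all mice, among them Car9 (0.67 log2) and Car12 (2.13 log2), carbonic anhydrases that buffer acid, and 2 were lower, Hmox1 (-3.07 log2), a haem oxygenase that macrophages also make and that is lower here together with the myeloid markers, and Ndrg1 (-0.55 log2). The third higher gene was Stc2 (0.77 log2), named after its values were seen. Over all mice 4.49% of all genes were higher and 7.04% lower without overlap. The median of these 27 was -0.01 log2. Car9 was at 22, 19, 21.8 and 17.7 rescaled TPM in water-treated controls and at 39.7, 27 and 25.5 after DSS, and in the labelled knockouts at 15.7 to 21.8 and at 31.1 to 37.6. Without DSS control replicate 3, 7 of the 27 were higher and 3 lower, beside 12.2% and 12% of all genes, with a median of -0.07 log2. Among those averaging 5 TPM or more, the largest differences were those of Car12, Tfrc and Ero1l (higher) and of Hmox1, Tff3 and Ndrg1 (lower). Fam162a (6 of 7 DSS mice above all water-treated mice), named after its values were seen, was also among the higher ones. Hif1a itself ranged from 7.76 to 38.2 rescaled TPM in water and from 26.2 to 55.9 after DSS and overlapped.

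The genotype comparison asked whether loss of TNFR2 in the epithelium changed these enzymes. After DSS, none of the 10 members was called by limma on log2(TPM + 1) at an adjusted p under 0.05, beside 1 of 10899 genes (0.00918%). None had an unadjusted p under 0.05 either, beside 2.65% of genes. With cage as a covariate 1 member did, Hk2 (0.22 log2, SE 0.09, unadjusted p = 0.0488, adjusted p = 0.989 by limma), beside 422 of 10899 genes. The largest differences, labelled knockout minus control, were -0.21 log2 for Slc2a1 (SE 0.27, 95% interval -0.84 to 0.42) and 0.21 for Pgk1 (SE 0.14, -0.13 to 0.54). The adjusted p of each of the 10 was 1.00. Groups of 3 and 4 mice cannot give an exact p below 0.0286, and the Pgk1 difference had p = 0.257 by exact permutation. The Pgk1 difference lay in cage c, where the only labelled knockout exceeded the only control by 0.68 log2, while within cage d the difference was 0.01 (2 and 3 mice). For 6 of 10 members the sign was the same in both cages.

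In water the picture was the same. None of the 10 members was called, beside 1 of 11046 genes (0.00905%), and none had an unadjusted p under 0.05, beside 5.28%. The largest differences were -0.36 for Hk2 (SE 0.17, 95% interval -0.75 to 0.03, adjusted p = 0.864) and -0.35 for Slc2a1 (SE 0.20, -0.80 to 0.11). The labelled-knockout mice had 48.8, 35.6, 42.8, 48.7 and 44.4 rescaled TPM of Hk2 and the controls 50, 61, 77.9 and 43.1, so the groups overlapped (exact p = 0.0794, where the smallest possible is 0.00794). Both cages gave a lower Hk2 in the labelled knockouts, by -0.57 in cage a and -0.17 in cage b. Tpi1 was higher by 0.18 (SE 0.11), and 7 of 10 members were higher in the labelled knockouts, with a median of 0.06 log2 against 0.00 for all genes, but 1 of 10 with a median of -0.13 after quantile normalization. No gene of the further lists was called either: after DSS 0 of 18 other glycolysis genes, 0 of 13 of pyruvate entry, 0 of 10 of the HIF machinery and 0 of 26 other hypoxia genes, and in water 0 of 18, 13, 10 and 28. Beside these, plasma and B cell markers were higher in the labelled knockouts in water (8 of 9 tested, median 1.27 log2) and stroma markers lower (9 of 10, median -0.53). After DSS 4 of 4 plasma and B cell markers tested were higher (median 1.27), 7 of 7 myeloid markers lower (-0.21) and 8 of 9 stroma markers higher (0.14). None of these markers was called, and the part of these cells in the members' values was not tested. The difference of the genotype effects between treatments was not tested. A p that misses the threshold does not show that the genotypes were alike: the 95% intervals of Slc2a1 reached -0.84 log2 after DSS and -0.80 in water.

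**Figure D4:**
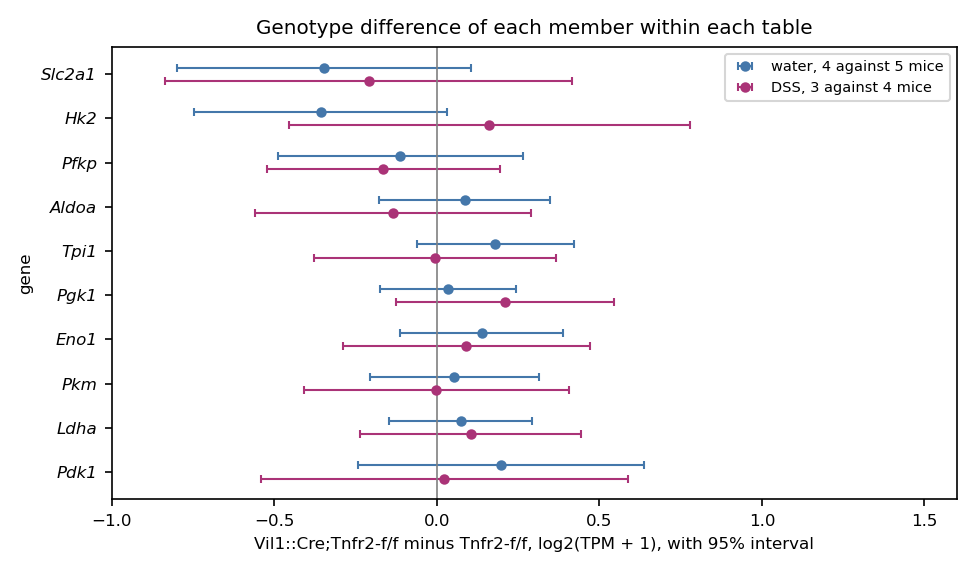
Labelled knockout minus control difference of log2(TPM + 1) (x axis) with its 95% interval for each gene (y axis), within the water table (4 against 5 mice) and the DSS table (3 against 4 mice). All 20 intervals include 0.

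No isoenzyme share differed by genotype after adjustment over 16 comparisons (8 steps in 2 treatments). The smallest exact p was that of the hexokinase step in water, where Hk2 was 65.7% ± 5.36 (SD, n = 4) in controls and 57.5% ± 3.10 (SD, n = 5) in the labelled knockouts (exact permutation p = 0.0159, adjusted 0.254). After DSS the same share was higher in the labelled knockouts, 77.3% ± 3.59 (SD, n = 4) against 72.4% ± 6.99 (SD, n = 3), with exact p = 0.286. The enolase share after DSS was 91.3% ± 4.04 and 94.5% ± 1.30 (exact p = 0.143).

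Cage, which is also sex, was fitted in water as well, and a p that misses the threshold does not show that the cages were alike. Fitted beside genotype, cage b minus cage a called 4 of 11046 genes (0.0362%) and none of the members, and no member had an unadjusted p under 0.05, beside 6.83% of genes. In cage b 8 of the 10 members were lower, with a median of -0.14 log2 against 0.00. Markers of cell types differed between the cages as well, with none called. In cage b all 12 epithelial markers were lower (median -0.18 log2), and all 10 myeloid (0.41), all 7 pan-leukocyte (0.45) and all 10 stroma markers tested (0.33) were higher. The part of these cells in the members' values was not tested. Slc2a1 had the largest difference (-0.32, SE 0.18, adjusted p = 0.781).

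Within a group some of the members varied together over the mice and others did not. After taking each group's mean away, Aldoa, Tpi1, Eno1, Pkm and Ldha varied together over the 16 mice, with Pearson r between 0.745 and 0.957 (10 pairs, median 0.86), the highest between Tpi1 and Eno1. Slc2a1 and Hk2 had r of 0.603 to 0.794 with those 5 and with each other. Pgk1 followed the 5 less closely, with r between 0.005 and 0.438 (median 0.313). Pdk1 ran the other way from most members, with r from -0.480 (Tpi1) to 0.187 (Pfkp). Pfkp had r from -0.143 (Hk2) to 0.234 (Pgk1). All 45 member pairs had a median r of 0.325, against 0.004 over all pairs of genes averaging 5 TPM or more in both tables. Genes of a mouse share its library and its scaling, so these r are a description with no p. The mean deviation over all 10 members, Pdk1 and Pfkp included, was highest in DSS labelled-knockout replicate 1 (0.269) and in water control replicate 3 (0.224). The 5 genes most like this mean deviation, of 6182, were Cnnm4 (r = 0.872, rho 0.818), Lamb3 (0.842), Tprn (0.84), Myo1a (0.83) and Myl12b (0.826), over 16 mice. Without those 2 mice r fell to between 0.605 and 0.743.

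Some of these levels rest on shared sequence. Of the stretches of 31 bases in the listed Eno1 transcript, 75.6% also occur in the annotated copy Eno1b, and Pgk1 shares 68.2% with Pgk1-rs7. For Pkm 50.9% of the stretches occur in transcripts of another gene, for Ldha 39.2% and for Aldoa 35%, each taken over all annotated transcripts. Eno1, Pgk1, Pkm, Ldha and Aldoa are therefore uncertain where reads were divided between copies. Of these copies 3 were listed and shared at least 1% of a member's stretches. Eno1b was at no more than 0.667 TPM in any mouse, and Aldoart1 and Aldoart2, which share 13.9% and 6.41% with the main Aldoa transcript, at no more than 0.339 and 0.129. Slc2a1, Hk2, Pfkp and Pdk1 share at most 0.31%, and Tpi1 18.2%.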

How the data were processed

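RNA of EpCAM+ cells from 16 mice was measured as stranded polyA libraries, read once over 75 bases. The authors quantified reads with kallisto and tested genotype with sleuth. The submitters' notes name mm10. The deposited tables, one for each treatment, hold TPM per principal transcript, scaled within a table. They also hold p-values, q-values and a log2 ratio of the authors' own genotype test, which were not used. After 385 duplicate lines were removed from the 29373 in each table, 28988 transcripts remained. TPM was summed per gene symbol.

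Groups, cage and sex came from the labels. Genotype was tested within a table by limma 3.58.1 (R 4.3.3) on log2(TPM + 1), with eBayes and its trend option. Genes averaging under 1 TPM in the compared mice were left out, and p-values were adjusted by Benjamini-Hochberg over every gene tested. Single values were tested by exact two-sided permutation of mice. The pseudocount of 1 understates changes of low genes such as Pfkp and Pdk1. TPM keeps no read depth, and the number of mice limits the precision. Members, gene lists and alternatives were chosen with earlier results of these data known. Named genes are the members, their isoenzymes, list genes called within a table or (up to 3 per list and direction, with a mean of at least 5 TPM) not overlapping across treatments, and the 5 genes most like the members. Genes outside this rule (Stc2, Fam162a, Hif1a, Gapdh, Pgam1, Bpgm and single cell type markers) were named after their values were seen. Positions are from GENCODE M21, and promoters from RefSeq, where all 10 genes matched. The limma test was checked on simulated data. Alternatives were another pseudocount, other filters and scalings, array weights, cage as a covariate, a replicate block, all groups in 1 fit, and leaving out each mouse.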

Additional observations from a re-analysis of the deposited data

Results flagged for a closer look

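Of 57 groups of 4 or 5 mice (levels, isoenzyme shares and the ratio of Pgk1 to Aldoa), 4 held a mouse that stood apart from the rest by Dixon's test, where chance flags about 1 group in 20. Pfkp was low in water-treated labelled-knockout replicate 1, at 5.01 rescaled TPM. DSS labelled-knockout replicate 1, of cage c, was the highest of its group in Pfkp, at 8.27 rescaled TPM, and in Pgk1, at 292. The Hk2 share of hexokinase TPM was lowest in DSS labelled-knockout replicate 2, at 72%. The group of 3 DSS-treated controls was too small for this test.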

How the results depend on the processing

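No member was called for genotype or cage under any setting, 0 in each fit (9 of 10 tested in water at a mean of 5 TPM), and no isoenzyme share passed in any of the 16 repeats that left out 1 mouse. Members with an unadjusted p under 0.05 numbered 0 except 1 after DSS with cage as a covariate, 1 in water after quantile normalization, 2 in water without control replicate 4 and 1 for cage without labelled-knockout replicate 2. The count over all genes was small. Genotype after DSS called 1, 0 with a pseudocount of 0.1, without a filter, with the replicate block or without cage c, and between 0 and 3 without 1 mouse. Genotype in water called 1, 0 with a pseudocount of 0.1, at a mean of 5 TPM or with the replicate block, 4 without a filter, 2 after quantile normalization, 3 in 1 fit of all groups and between 1 and 2 without 1 mouse. Cage in water called 4, and 3 to 7 without 1 mouse. Same-numbered mice did not deviate together (correlation of deviations -0.206 to -0.033 after DSS, -0.079 to 0.091 in water), and the main fits did not pair mice. In so few mice these values cannot exclude a pairing. The paper made its analyses within litters that held both genotypes, and litter was not used here.

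Members without overlap across treatments numbered 0 in the main scaling. They numbered 1 in the values as deposited and at the same summed TPM (Pgk1, higher), 2 by rank (higher), 5 without cage c (1 higher and 4 lower, chosen after seeing the data), and 0 to 2 without 1 mouse (0 to 1 higher, 0 to 2 lower). Relative to epithelial markers, or without immunoglobulin genes, the count was 0.

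Genotype differences near 0 changed sign in log2. After DSS, Tpi1 became 0.022 with cage as a covariate, 0.055 with array weights and 0.015 without cage c, Pkm became 0.031 and 0.036 with the first 2, and with the replicate block Pkm became 0.048 and Pdk1 -0.034. Without 1 mouse the ranges after DSS were -0.037 to 0.393 (Hk2), -0.273 to 0.042 (Aldoa), -0.135 to 0.102 (Tpi1), -0.035 to 0.177 (Eno1), -0.135 to 0.1 (Pkm) and -0.152 to 0.152 (Pdk1). In water they were -0.198 to 0.018 (Pfkp) and -0.013 to 0.081 (Pgk1), and for cage -0.220 to 0.075 (Hk2). Quantile normalization reversed 6 members in water, Aldoa to -0.202, Tpi1 to -0.003, Pgk1 to -0.120, Eno1 to -0.051, Pkm to -0.138 and Ldha to -0.187. The cause was not tested. TPM carries no depth, so the precision of low genes is unknown.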

Other observations

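Gapdh, the enzyme between Tpi1 and Pgk1 in the pathway, had a wider range than any member in water, from 168 to 634 rescaled TPM, against 331 to 551 after DSS. Most of that spread lay in 1 of its 2 listed transcripts. ENSMUST00000073605.14 ranged from 6.99 to 420 rescaled TPM in water, while ENSMUST00000118875.7 ranged from 105 to 274.

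Several genes of the further lists were without overlap once DSS control replicate 3 was left out. The 3 given here fall under the rule for named genes, but were picked from it after their values were seen. Pck1, the first step of gluconeogenesis, was at 56.4 to 86.5 rescaled TPM in water and 20.4 to 28.5 in the other 6 DSS mice, with replicate 3 at 60.9. Dld, a subunit of pyruvate dehydrogenase, was at 47.2 to 65.3 in water and at 69.4 to 85.8 in those 6 mice, with replicate 3 at 47.6. Tff3, a goblet cell product that hypoxia is also known to raise, was at 562 to 1761 in water and 158 to 365 in those 6 mice, with replicate 3 at 1343. The place of replicate 3 follows from how these genes were picked, since they part only without it, and is no separate finding. Without replicate 3, 12.2% of all genes were higher and 12% lower without overlap.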
